A study of Mus musculus with 8 samples.

Results

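The lysyl oxidase family of the mouse comprises Lox, Loxl1, Loxl2, Loxl3 and Loxl4, and its members were taken by gene symbol, which gave 5 of the 55487 genes in the count table. The family was chosen by the measured differences of its members between genotypes in these same libraries. Of its 5 genes, 4 were among the 14228 genes that passed the filter on low counts, and Lox was not. RNA was sequenced from Lewis lung carcinoma (LLC) cells, a mouse lung tumor line grown here in culture outside the animal, as 4 wild-type libraries and 4 libraries labelled Ago2 knock-out (ΔAgo2), each labelled a biological replicate and all carrying 1 and the same batch label. All 8 were grown in DMEM with GlutaMAX, serum and antibiotics, without a treatment. Ago2 encodes Argonaute 2, the protein that holds small RNAs and cuts or represses their targets. The ΔAgo2 cells had received lentiCRISPRv2 with a guide against Ago2, had been selected with puromycin and sorted as single cells into clones. The sources used here do not name the clone behind each library or give an empty-vector control, so the genotype cannot be told apart from clonal origin or from transduction and selection.

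Lysyl oxidases are secreted copper enzymes with a quinone cofactor made from a lysine and a tyrosine of the protein itself. They oxidise lysines of collagen and elastin to aldehydes, which then form the covalent crosslinks that give the extracellular matrix its stiffness and tensile strength. Lox, the founding member, and Loxl1, which acts mainly on elastic fibres, carry a propeptide that proteases of the Bmp1 group remove, whereas Loxl2, Loxl3 and Loxl4 carry scavenger receptor cysteine-rich domains ahead of the catalytic part. In tumors, Lox and Loxl2 are known for crosslinking collagen around invading cells and for their induction by hypoxia.

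The catalytic part is what the 5 genes share, and its most conserved stretch is shown because it holds the lysine of the cofactor and because it tells how far reads of the members can be confused. The longest run of residues identical in all 5 coding sequences was 13 residues, or 39 bases, in 1 exon of each gene. The run is printed for Loxl1 to Loxl4 in capitals, with 9 bases of flank on each side in lower case, as the coding strand of the GENCODE transcripts on GRCm38. With these flanks, the printed stretch lies at chr9:58293618-58293674 on the minus strand in exon 4 of 7 of Loxl1, at chr14:69689080-69689136 on the plus strand in exon 11 of 14 of Loxl2, at chr6:83050168-83050224 on the plus strand in exon 11 of 14 of Loxl3, and at chr19:42598708-42598764 on the minus strand in exon 12 of 15 of Loxl4.
Loxl1: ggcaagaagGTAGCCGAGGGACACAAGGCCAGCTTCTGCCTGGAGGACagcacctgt
Loxl2: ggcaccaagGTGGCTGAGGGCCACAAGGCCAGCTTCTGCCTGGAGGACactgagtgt
Loxl3: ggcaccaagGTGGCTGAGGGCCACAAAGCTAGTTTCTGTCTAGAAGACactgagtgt
Loxl4: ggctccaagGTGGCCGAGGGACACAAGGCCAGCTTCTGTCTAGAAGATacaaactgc
The 4 printed runs encode the same residues yet differed from each other at 3 to 9 of the 39 bases, fewest between Loxl1 and Loxl2 and most between Loxl1 and Loxl3.

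The coding sequences encode 411 residues in Lox, 607 in Loxl1, 776 in Loxl2, 754 in Loxl3 and 758 in Loxl4. Over the last 200 residues, which hold the catalytic part, Lox and Loxl1 were identical at 75.0% of aligned positions, and pairs among Loxl2, Loxl3 and Loxl4 at 66.5% to 70.2%. Pairs across these branches were identical at 50.6% to 57.3%. No pair of the 10 shared a run of 50 bases, and the longest exact run in common was 32 bases, between Lox and Loxl1, against reads of 100 bases. The Lox gene (ENSMUSG00000024529.14) spans chr18:52516067-52529867 on the minus strand, Loxl1 (ENSMUSG00000032334.10) chr9:58287738-58313186 on the minus strand, Loxl2 (ENSMUSG00000034205.16) chr14:69609068-69695834 on the plus strand, Loxl3 (ENSMUSG00000000693.10) chr6:83034173-83052562 on the plus strand and Loxl4 (ENSMUSG00000025185.14) chr19:42593982-42612813 on the minus strand. The last 1297 bases of the Loxl3 span overlap Htra2, a mitochondrial protease gene on the opposite strand, and 1207 bases of Lox overlap the antisense gene AC161119.1. The strand setting of the counting is not given in the sources used here, so reads of these overlaps cannot be assigned with certainty.

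The libraries held 39628101 to 68530912 counts in genes. Wild-type 4 stood apart, with a median Spearman correlation of 0.864 to the other wild-type libraries (the other 3 reached at least 0.948), 0.540% mitochondrial counts (2.39% to 4.51% elsewhere) and gene deviations that followed GC content upwards (rho 0.72). The other wild-type libraries deviated the opposite way, at rho −0.43 to −0.51, and the ΔAgo2 libraries lay between −0.16 and 0.34. ΔAgo2 1 and ΔAgo2 2 differed least (a chi-square of 23.2 per gene, against 92.2 to 128.2 for the other ΔAgo2 pairs), which is still more than sampling noise, and they were kept as separate samples. Wild-type libraries differed more from each other, at 370.9 to 1645.3 per gene for all pairs and 370.9 to 584.9 for pairs without wild-type 4. Ago2 RNA, summed over the whole gene, was 72.0 ± 44.2 TPM in wild-type and 89.6 ± 14.1 TPM in ΔAgo2 libraries (SD, n = 4 each). This gene-level count does not read a small edit at the guide's site, and the genotypes are used as labelled. The keratins Krt8 and Krt18 were expressed, whereas the epithelial adhesion genes Epcam and Cdh1 had at most 1 and 9 counts in any library, and 6 of 7 alveolar markers stayed at or under 3 counts. Of 8 immune markers, 6 were at or under 3 counts in every library, while Cd68 was at 16.5 to 94.6 TPM in wild-type and 12.8 to 44.4 TPM in ΔAgo2 libraries and Lyz2 at 1.19 to 6.30 and 1.76 to 2.62 TPM, and all 5 endothelial markers were under 1 TPM. The 6 mesenchymal markers, led by Vim and Sparc, summed to 3005 to 3843 TPM in wild-type and 4284 to 5650 TPM in ΔAgo2 libraries.

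Per transcript length, the LLC cells expressed mainly Loxl3 and Loxl4. In wild-type libraries the order by mean TPM (deposited values scaled for transcript length and depth) was Loxl3, Loxl4, Loxl2, Loxl1 and Lox. Loxl3 ranged from 39.9 to 105.0 TPM, Loxl4 from 19.9 to 28.4 TPM and Loxl2 from 2.09 to 6.63 TPM, and these 3 ranges did not overlap. Loxl1 at 0.07 to 0.69 TPM lay below all of them, and its range overlapped that of Lox at 0.01 to 0.32 TPM. In ΔAgo2 libraries Loxl3 and Loxl4 again led, at 73.9 to 114.7 and 26.5 to 42.6 TPM, while Loxl1, Loxl2 and Lox all stayed under 0.5 TPM and could not be put in an order, since each overlapped its neighbour.

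**Figure D1:**
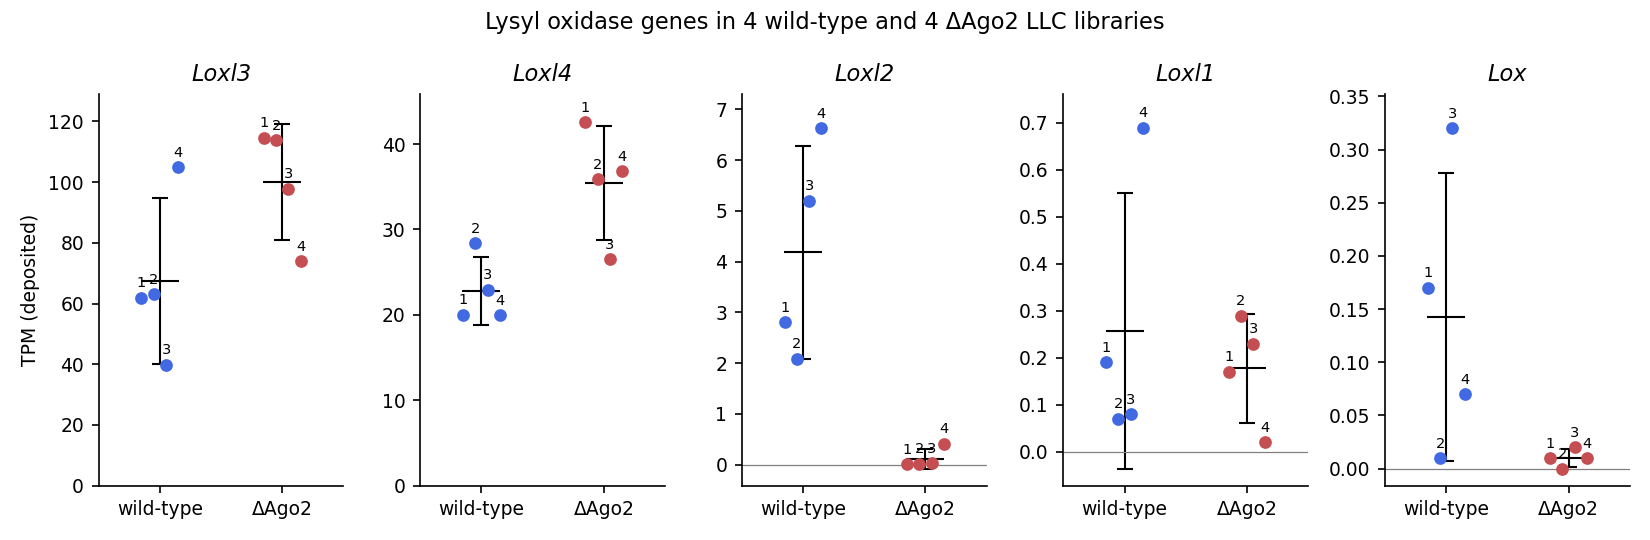
Deposited TPM of each lysyl oxidase gene by library, with the replicate number above each point and the mean ± SD (n = 4) as bars; each panel has its own linear axis. The Loxl2 groups do not overlap, at 2.09 to 6.63 TPM in wild-type and 0.01 to 0.41 TPM in ΔAgo2 libraries, and the other 4 genes overlap between groups.

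Loxl2, a collagen crosslinker that also acts on basement membrane collagen, was the member whose level separated the genotypes. It had 242, 204, 552 and 520 counts in wild-type 1 to 4, and 1, 1, 2 and 33 counts in ΔAgo2 1 to 4. On the TPM scale these were 2.81, 2.09, 5.20 and 6.63 against 0.01, 0.02, 0.03 and 0.41. Every ΔAgo2 library lay below every wild-type library, 3 of the 4 ΔAgo2 libraries were at or under 2 counts, and ΔAgo2 4 held 33 of the 37 counts of its group. The means were 4.18 ± 2.10 TPM and 0.118 ± 0.195 TPM (SD, n = 4 each). In these bulk samples, fewer cells that express the gene and less RNA per cell cannot be told apart.

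The members were chosen with this contrast known, so the fitted differences describe the libraries and carry no test. The log2 fold change of Loxl2 in counts, ΔAgo2 minus wild-type, was −5.45 ± 1.11 (SE, edgeR fit of all 8 libraries). It depended on 1 library, being −8.02 without ΔAgo2 4. The pooled counts, 1518 against 37, gave a depth-scaled ratio of 36.9 (95% interval 26.6 to 52.6, counting error only), and 249.8 (97.4 to 918) without ΔAgo2 4. Loxl2 was the 1 member of 5 whose groups did not overlap with ΔAgo2 below, on TPM (1.93% of all genes tested) and on CPM (2.98%). CPM is counts scaled by the library total over the genes tested and by edgeR's TMM factor. In either direction, 6.19% of all genes tested had no overlap on TPM and 6.07% on CPM. With edgeR's quasi-likelihood test at an adjusted p under 0.05, 0 of the 4 members tested were called (0.295% of all genes tested, 42 in number), and 1 had an unadjusted p under 0.05 (7.34% of all genes tested). That last number was 3 of 4 without wild-type 4 and with limma-voom and sample weights. It was 2 of 4 with both GC corrections, library size alone and both TPM fits. With DESeq2 and without a filter it was 2 of 5, with at least 10 counts in every library 0 of 2, and otherwise 1 of 4. The share of all genes in those settings was not computed, so these counts are no result about the members. Calls over all genes rose from 42 to 113 without wild-type 4, 257 with limma-voom and 68 with the GC correction. DESeq2 called 1 of 5 members, Loxl2 (2.23% of the genes with an adjusted p).

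Among markers of other cells, 1 fibroblast marker and 1 alveolar marker had the same order of groups as Loxl2, beside 1.93% of all genes tested on TPM. Acta2, the smooth muscle actin of myofibroblasts, was at 1.80, 4.14, 136.74 and 75.16 TPM in wild-type and 0.50, 0.71, 0.08 and 0.79 TPM in ΔAgo2 libraries. Wild-type 3 and 4, the libraries with the most Loxl2, also had the most Acta2. Napsa, an aspartic protease of alveolar cells, was at 0.99, 1.94, 1.11 and 0.80 TPM in wild-type 1 to 4 and 0.16, 0.23, 0.41 and 0.25 TPM in ΔAgo2 1 to 4. Within the wild-type group its order ran against that of Loxl2, with the most Napsa in wild-type 2 and the least in wild-type 4. The 8 fibroblast markers summed to 20.8 to 142 TPM in wild-type and 15.8 to 31.1 TPM in ΔAgo2 libraries, which overlap, and every one of them except Acta2 overlapped between the groups. Pdgfra, a receptor of fibroblasts, was at 2.66 to 21.8 TPM in wild-type and 13.4 to 28.9 TPM in ΔAgo2 libraries, and Pdgfrb at 0.78 to 2.78 and 0.17 to 1.00 TPM. The matrix genes Dcn (0.19 to 2.70 and 0.22 to 4.73 TPM), Lum (0.00 to 0.54 and 0.08 to 0.87 TPM) and Col1a1 (0.39 to 1.02 and 0.38 to 1.47 TPM) were low in both groups. Thy1 had no more than 2 counts and Col1a2 no more than 41 counts in any library. Other markers had the opposite order on TPM, with every ΔAgo2 library above every wild-type library. These were Vim (2217 to 3049 TPM in wild-type, 3135 to 4193 TPM in ΔAgo2 libraries), Sparc (347 to 704 and 909 to 1054 TPM) and the scarce endothelial Cdh5 (0.00 to 0.13 and 0.14 to 0.57 TPM). In either direction, 6.19% of all genes tested had no overlap on TPM, against the 1.93% with ΔAgo2 below. On counts the log2 fold change was 0.19 for Vim (adjusted p = 0.890, edgeR's quasi-likelihood test). For Sparc it was 0.60 (adjusted p = 0.732, same edgeR test), and Cdh5 did not pass the filter on low counts. The part of all these markers in the Loxl2 result was not tested.

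Lox, which crosslinks fibrillar collagen and elastin, was close to the limit of detection. Its counts were 13, 1, 30 and 5 in wild-type 1 to 4 and 1, 0, 1 and 1 in ΔAgo2 1 to 4, that is 0.17, 0.01, 0.32 and 0.07 TPM against 0.01, 0.00, 0.02 and 0.01 TPM. Wild-type 1 and 3 held most of the reads, wild-type 2 was at the level of the ΔAgo2 libraries, and the groups overlapped. The pooled counts of 49 and 3 gave a depth-scaled ratio of 14.7 (95% interval 4.74 to 73.7, counting error only), which was 8.22 (2.42 to 43.4) without wild-type 3. The count of 0 in ΔAgo2 2 allows up to 3 counts. The antisense gene AC161119.1 had at most 11 counts, with a mean of 0.37 TPM in wild-type libraries against 0.00 TPM in ΔAgo2 libraries.

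Loxl1, which is needed for elastic fibre renewal, was also scarce and its difference had no stable sign. Wild-type 1 to 4 had 10, 4, 5 and 33 counts (0.19, 0.07, 0.08 and 0.69 TPM), and ΔAgo2 1 to 4 had 9, 11, 9 and 1 counts (0.17, 0.29, 0.23 and 0.02 TPM). Wild-type 4 was the highest and ΔAgo2 4 the lowest of all libraries, and the rest of the groups overlapped. The log2 fold change was −1.0 ± 0.97 with all libraries and 0.56 without wild-type 4, the library that stood apart in mitochondrial counts and GC content. The pooled count ratio, wild-type over ΔAgo2, was 1.56 (95% interval 0.976 to 2.53, counting error only) and 0.668 (0.355 to 1.23) without that library. The part of this library's composition in the result was not tested.

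Loxl3, which crosslinks collagen in cartilage and muscle attachments, was the most abundant member in every library. It reached 61.9, 63.1, 39.9 and 105.0 TPM in wild-type 1 to 4 and 114.7, 113.8, 97.8 and 73.9 TPM in ΔAgo2 1 to 4, from 3607 to 8596 counts. The groups overlapped, because wild-type 4 exceeded ΔAgo2 3 and 4. The means were 67.5 ± 27.2 TPM and 100.0 ± 19.1 TPM (SD, n = 4 each). On counts the log2 fold change was 0.23 ± 0.42 (SE), with 0.82 without wild-type 4, the library that stood apart, and 0.0071 without wild-type 3. Htra2, whose gene overlaps the end of Loxl3, had 132.2 to 221.8 TPM in wild-type and 144.3 to 178.9 TPM in ΔAgo2 libraries, with its highest value in wild-type 4 as well.

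Loxl4, an amine oxidase of the same branch as Loxl2 and Loxl3, varied least over the 8 libraries, with an SD of log2 CPM of 0.30 against 0.63 for Loxl3, 1.28 for Loxl1 and 3.36 for Loxl2. Its level was 20.01, 28.4, 22.9 and 19.9 TPM in wild-type 1 to 4 and 42.6, 35.9, 26.5 and 36.8 TPM in ΔAgo2 1 to 4. Of the ΔAgo2 libraries, 3 lay above every wild-type library, and ΔAgo2 3 lay just under wild-type 2. The means were 22.8 ± 3.96 TPM and 35.5 ± 6.65 TPM (SD, n = 4 each), and the log2 fold change on counts was 0.42 ± 0.25 (SE). For all genes tested the median log2 fold change was −0.11 on counts, and 0.15 on log2(TPM + 1), so TPM differences lie higher than count differences over the whole table.

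**Figure D2:**
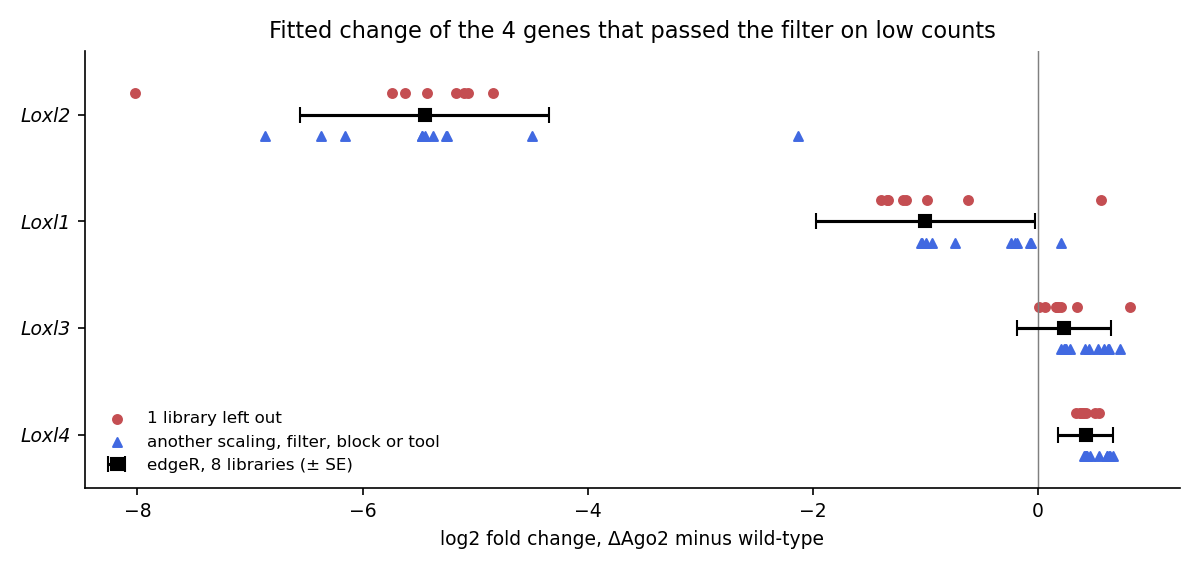
Log2 fold change of the 4 members that passed the filter on low counts, ΔAgo2 minus wild-type, from edgeR with all 8 libraries (squares, ± SE), with 1 library left out (circles) and under other processing (triangles). Loxl2 stays below −2 in every setting shown, Loxl1 lies on both sides of 0, and Loxl3 and Loxl4 lie at or above 0.0071.

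As a whole the family summed to 85.1, 93.6, 68.4 and 132.3 TPM in wild-type 1 to 4 and to 157.4, 149.97, 124.6 and 111.2 TPM in ΔAgo2 1 to 4, and the groups overlapped through wild-type 4. Loxl3 took 69.4 ± 8.91% of the sum in wild-type and 73.4 ± 5.18% in ΔAgo2 libraries (SD, n = 4 each), and Loxl4 took 25.6 ± 8.17% and 26.3 ± 5.10%. Both shares overlapped between genotypes. The ratio of Loxl3 to Loxl4, in TPM, was between 1.74 and 5.27 in wild-type and between 2.01 and 3.69 in ΔAgo2 libraries. Loxl2 made up 2.23% to 7.60% of the family in wild-type libraries, with a mean of 4.54 ± 2.34%, and 0.00635% to 0.369% in ΔAgo2 libraries, with a mean of 0.103 ± 0.177%. Loxl3 and Loxl4 together made up 91.8% to 97.7% of the family's TPM in wild-type and 99.6% to 99.9% in ΔAgo2 libraries.

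**Figure D3:**
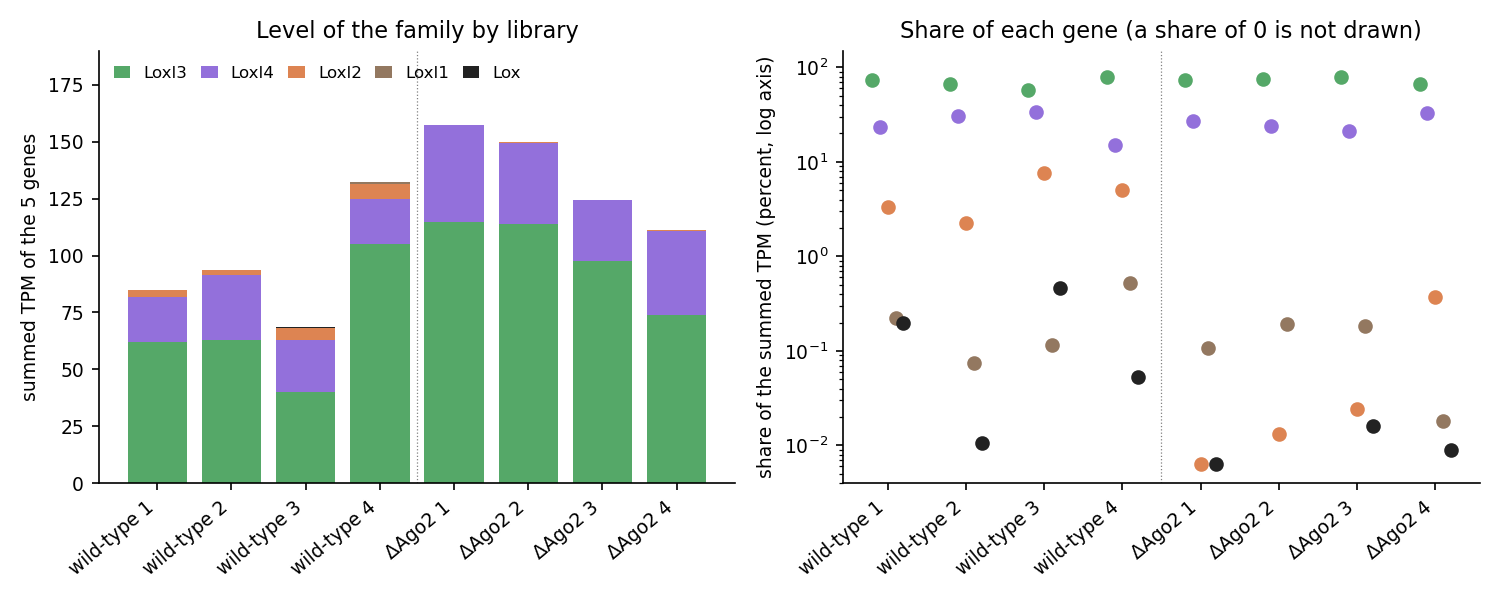
Left, summed TPM of the 5 lysyl oxidase genes in each library, stacked by gene; right, each gene's share of that sum in percent on a log axis, with a share of 0 not drawn. Loxl3 and Loxl4 make up nearly all of every bar, and the Loxl2 share is 2.23% to 7.60% in wild-type and 0.00635% to 0.369% in ΔAgo2 libraries.

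The genes beside Loxl2 and Lox on the chromosome were read in the same fit to see whether their levels moved too. R3hcc1 begins 1473 bp beyond the end of Loxl2 on the opposite strand. It was at 17.9, 38.2, 18.9 and 49.2 TPM in wild-type 1 to 4 and at 14.7, 14.9, 16.2 and 29.9 TPM in ΔAgo2 1 to 4. Its log2 fold change was −1.03, with overlapping groups and a Benjamini-Hochberg adjusted p of 0.691 in edgeR's quasi-likelihood test. Beyond it, Chmp7, 21166 bp away, had means of 25.7 TPM in wild-type and 21.4 TPM in ΔAgo2 libraries, with a log2 fold change of −0.55 (adjusted p = 0.732, same edgeR test). On the other side, the mitochondrial iron importer gene Slc25a37, 323956 bp away, had means of 123.4 and 139.96 TPM and a log2 fold change of 0.07 (adjusted p = 0.979, same edgeR test). The hormone gene Stc1, 567264 bp away on that side, had means of 7.44 and 3.90 TPM and a log2 fold change of −1.24 (adjusted p = 0.740, same edgeR test). Of these 4 neighbours, none passed the threshold. Loxl2 did not pass it either, and only 0.295% of all genes tested did, so this cannot set the neighbours apart from Loxl2. The antisense gene Gm27177, which overlaps 74219 bases of the Loxl2 span, had 0 counts in every library. Next to Lox, Srfbp1 lies 24136 bp away and had means of 25.7 TPM in wild-type and 22.7 TPM in ΔAgo2 libraries (adjusted p = 0.887, same edgeR test), and Snx2, 646449 bp away on the other side, had means of 99.9 and 157.2 TPM (adjusted p = 0.758, same edgeR test).

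Genes that act with lysyl oxidases were taken as 7 lists by role, 98 symbols of which 97 were found and 76 passed the filter on low counts. The quasi-likelihood test of edgeR called 0 of the 76, with Benjamini-Hochberg adjustment over the whole table. It called only 0.295% of all genes tested, so this 0 is no result about the lists. Before adjustment, 8 of the 76 had p under 0.05, of which 2 were higher and 6 lower in ΔAgo2 libraries, beside 2.72% and 4.62% of all genes tested. DESeq2 called 1 of the 76, Ltbp4, beside 2.23% of all genes with an adjusted p in that test. The median log2 fold change over the 76 genes was −0.11, as it was over all genes tested. The list medians were −0.08 for propeptide processing, −0.38 for elastic fibre assembly, 0.10 for collagen substrates, −0.15 for collagen modification and folding, −0.57 for copper supply, −0.38 for other crosslinking enzymes and 0.07 for regulators. With wild-type 4 left out, edgeR again called 0 of the listed genes, beside 113 of all 14541 genes tested in that fit. There 5 of the 7 medians lay between 0.17 and 0.36, while copper supply was at −0.16 and the regulators at −0.05.

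Proteins that process or present the enzymes came first. Bmp1, the protease that removes the propeptides of procollagen and Lox, was at 78.9 to 165.2 TPM in wild-type and 110.3 to 154.9 TPM in ΔAgo2 libraries. Of its enhancers, Pcolce was at 482.5 ± 327.2 TPM and 614.2 ± 191.3 TPM, with overlapping groups, and Pcolce2 at 39.3 ± 7.69 TPM and 50.9 ± 9.12 TPM. Fibronectin, Fn1, which binds Lox, was at 621.8 ± 255.1 TPM and 653.7 ± 92.6 TPM (SD, n = 4 each for these genes). None of the 5 tested genes of this list had an unadjusted p under 0.05 in edgeR, beside 7.34% of all genes tested. Postn and Fmod had at most 0 and 3 counts. The Bmp1 group of proteases was present mainly as Bmp1 itself, with Tll1 at no more than 1 count and Tll2 at no more than 7.

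The elastic fibre list held 17 genes, of which 12 were tested. Elastin itself, Eln, had at most 9 counts in any library. Ltbp4, which links latent TGF-β to elastic fibres, was at 101.3, 68.3, 108.9 and 75.7 TPM in wild-type 1 to 4 and at 50.9, 53.5, 41.6 and 52.2 TPM in ΔAgo2 1 to 4. These groups did not overlap, with a log2 fold change of −1.07 ± 0.28 (SE), and edgeR's adjusted p was 0.259 against 0.028 in DESeq2. Its paralog Ltbp1 was at 174.9, 138.3, 195.5 and 65.1 TPM in wild-type and 293.9, 269.4, 353.3 and 309.7 TPM in ΔAgo2 libraries. Here all ΔAgo2 libraries were higher, with a log2 fold change of 0.95 ± 0.30 (SE) and an edgeR adjusted p of 0.431. Neither gene passed the threshold of the main test.

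Of the collagen substrates, the basement membrane and fibrillar chains Col4a1 (682.6 and 906.6 TPM), Col4a2 (442.6 and 598.1 TPM), Col3a1 (421.6 and 505.0 TPM) and Col5a1 (183.8 and 289.7 TPM) had the highest wild-type and ΔAgo2 means, and their groups overlapped. The cartilage collagen Col2a1 was at 4.57, 0.73, 3.42 and 2.64 TPM in wild-type 1 to 4 and 1.11, 1.32, 0.48 and 0.16 TPM in ΔAgo2 1 to 4. Wild-type 2 lay within the ΔAgo2 range, and the log2 fold change was −2.18 ± 0.72 (SE) with an edgeR adjusted p of 0.464. Col5a3, a minor chain of collagen V, was at 8.47 to 13.2 TPM in wild-type and 17.7 to 20.4 TPM in ΔAgo2 libraries, without overlap on TPM and with an edgeR adjusted p of 0.709. Of type I collagen, Col1a1 stayed at 0.39 to 1.47 TPM and Col1a2 was under the filter.

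Of the 17 genes that modify and fold collagen before secretion, 16 were tested. P3h4, which works with the collagen lysyl hydroxylases in the endoplasmic reticulum, was at 48.8, 39.1, 51.2 and 80.4 TPM in wild-type 1 to 4 and 31.5, 34.8, 16.6 and 34.6 TPM in ΔAgo2 1 to 4. Its groups did not overlap, with a log2 fold change of −1.24 ± 0.42 (SE) and an edgeR adjusted p of 0.497. The collagen chaperone Serpinh1 was the most abundant, at 1392 ± 327.2 TPM and 1712 ± 284.5 TPM, and P4hb, a subunit of prolyl hydroxylase, was at 1524 ± 400.6 TPM and 1260 ± 180.4 TPM (SD, n = 4 each). The lysyl hydroxylase Plod2 was at 90.1 ± 48.5 TPM and 138.3 ± 10.4 TPM, with overlapping groups.

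For copper supply, 13 of 15 genes were tested and their median log2 fold change was −0.57, beside −0.11 for all genes tested. Without wild-type 4 the medians were −0.16 and −0.037. The metallothioneins, small proteins that bind copper and zinc, had the smallest p of this list. Mt1 was at 361.2, 333.6, 271.2 and 570.9 TPM in wild-type 1 to 4 and 146.6, 181.2, 260.7 and 232.0 TPM in ΔAgo2 1 to 4, with no overlap, a log2 fold change of −1.22 ± 0.42 (SE) and an edgeR adjusted p of 0.503. Mt2 was at 326.4 to 690.9 TPM and 150.5 to 372.2 TPM, which overlap, with an edgeR adjusted p of 0.408. Atp7a, the pump that loads copper into secreted enzymes, was at 3.93 ± 3.13 TPM and 4.64 ± 0.69 TPM, and Atp7b was under the filter.

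Of the other crosslinking enzymes, 5 of 10 were tested and none had an unadjusted p under 0.05 in edgeR, beside 7.34% of all genes tested. The matrix peroxidase Pxdn, which crosslinks collagen IV, was at 91.1 ± 7.55 TPM and 125.7 ± 29.7 TPM, and the sulfhydryl oxidase Qsox1 at 47.5 ± 14.7 TPM and 36.1 ± 3.56 TPM. Aoc2, a copper amine oxidase outside the family, was at 2.63 to 27.7 TPM and 7.51 to 12.8 TPM. Among 17 tested regulators of lysyl oxidase genes, the ligand gene Tgfb3 was at 32.9, 26.8, 27.0 and 18.5 TPM in wild-type 1 to 4 and 17.1, 15.7, 15.9 and 20.6 TPM in ΔAgo2 1 to 4. Wild-type 4 alone lay inside the ΔAgo2 range on this scale, and the log2 fold change was −0.80 ± 0.26 (SE) with an edgeR adjusted p of 0.442. Hif1a, the hypoxia factor, was at 22.8 TPM in wild-type 4 and 144.0 to 233.1 TPM in the 7 other libraries, and the co-activator gene Wwtr1 was at 31.9 to 116.0 TPM in wild-type and 113.2 to 156.5 TPM in ΔAgo2 libraries.

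**Figure D4:**
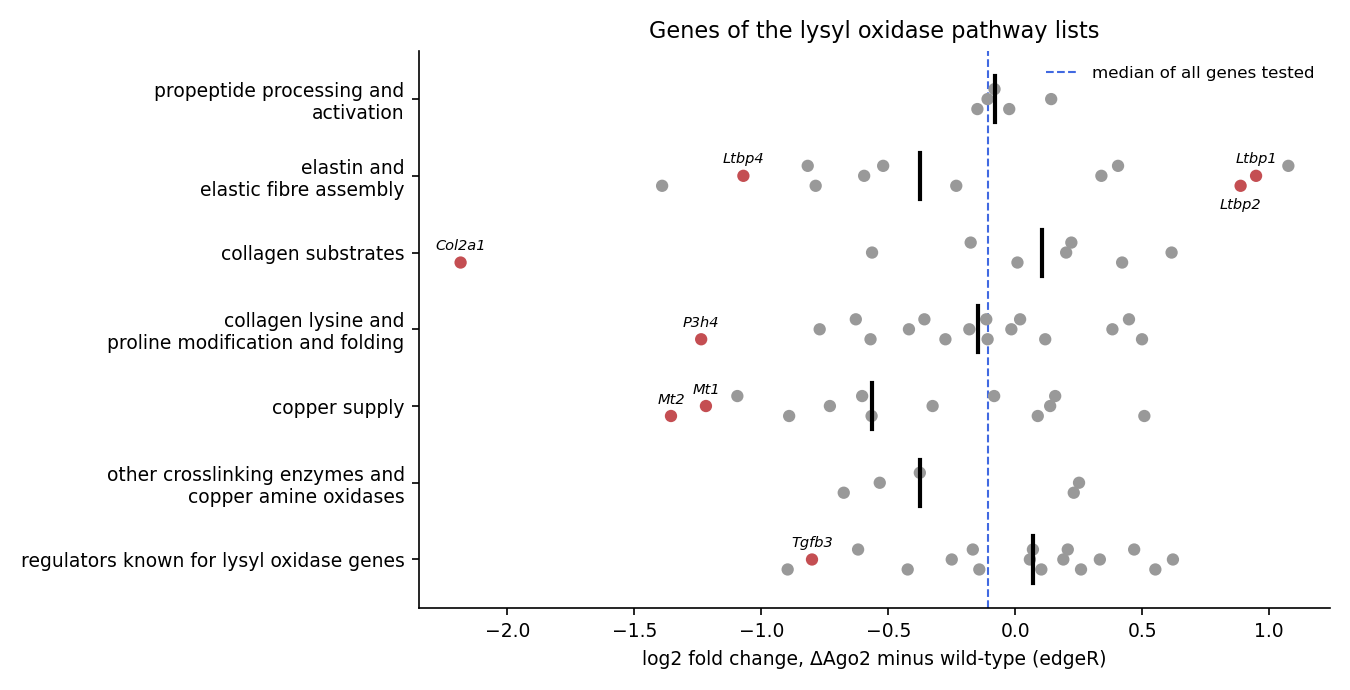
Log2 fold change, ΔAgo2 minus wild-type, of the 76 tested genes in the 7 lists of genes that act with lysyl oxidases; black bars are list medians, the dashed line is the median of all 14228 genes, and the 8 genes with an unadjusted p under 0.05 are red and named. None of the 76 genes passed an adjusted p under 0.05 in edgeR, which 0.295% of all genes tested did.

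The genes most like each member over the 8 libraries were named by the root mean square (RMS) difference of their mean-centred log2 CPM. Because they were picked for this likeness, a pattern they share with the member follows from the choice. For Loxl2 these were Hoxb5os (RMS 0.93), an antisense gene of the Hoxb cluster, and the transcription factor genes Tbx5 (RMS 1.12) and Lhx2 (RMS 1.17). Hoxb5os was at 5.86, 2.55, 10.31 and 12.27 TPM in wild-type 1 to 4 and 0.00, 0.00, 0.12 and 0.19 TPM in ΔAgo2 1 to 4. Tbx5 was at 0.70 to 3.51 TPM in wild-type libraries and listed at 0.00 in all 4 ΔAgo2 libraries, and Lhx2 was at 0.47 to 1.03 TPM and 0.00 to 0.05 TPM. Like Loxl2, all of them had their lowest wild-type value in wild-type 2. Hoxb5os stayed among the 3 nearest genes with any 1 of the 8 libraries left out, Tbx5 in 5 and Lhx2 in 2 of these 8 repeats.

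For Loxl3 the nearest genes were Ankrd9, Crmp1 and Fam83h, at RMS 0.11 to 0.15, and all were highest among wild-type libraries in wild-type 4 and lowest in wild-type 3. None of the 3 remained nearest once wild-type 4 was left out. For Loxl4 they were Dag1, the dystroglycan gene (RMS 0.077), Siae (RMS 0.088) and Mtcl1 (RMS 0.11). Dag1 was at 81.1, 112.5, 89.2 and 89.9 TPM in wild-type 1 to 4 and 167.7, 147.6, 119.1 and 152.2 TPM in ΔAgo2 1 to 4, with the lowest ΔAgo2 value in ΔAgo2 3, as in Loxl4. Dag1 stayed among the 3 nearest genes with any 1 of the 8 libraries left out, Siae in 7 and Mtcl1 in 2 of these 8 repeats. For the scarce Loxl1 the nearest genes, at RMS 0.48 to 0.49, were CT010467.1 (annotated as rRNA), Gm44364 and Mgmt, all with their highest value in wild-type 4. CT010467.1 and Gm44364 stayed nearest in 3 and Mgmt in 1 of the 8 repeats, and none of them without wild-type 4.

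**Figure D5:**
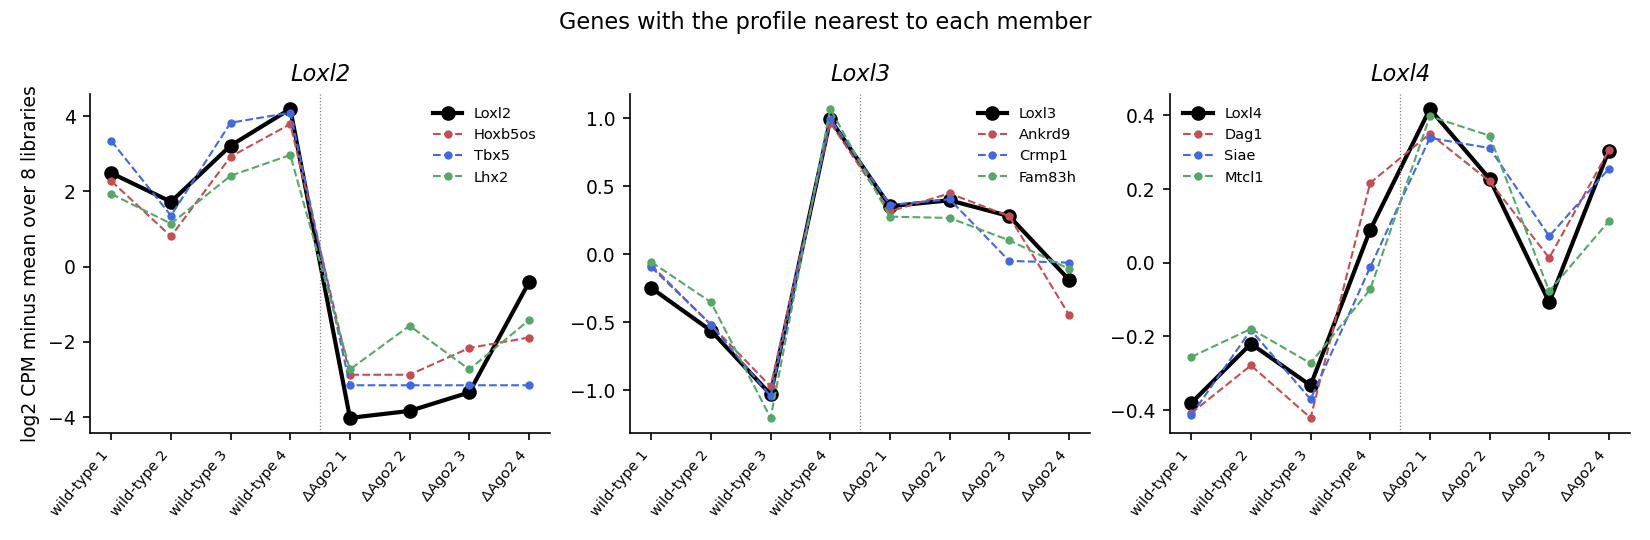
Log2 CPM minus its mean over the 8 libraries for Loxl2, Loxl3 and Loxl4 (black) and the 3 genes nearest to each, by library; the lines only join points of a gene. The Loxl2 set separates the genotypes, the Loxl3 set follows wild-type 3 and 4, and the Loxl4 set shares its low point among ΔAgo2 libraries in ΔAgo2 3 with Dag1, Siae and Mtcl1. Each set was picked for its likeness to the member, so these shared patterns follow from that choice.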

How the data were processed

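Total RNA of 4 wild-type and 4 ΔAgo2 LLC cultures was sequenced by the authors as stranded mRNA libraries with paired reads of 100 bases, aligned to rRNA and then to mm10, and assigned to genes with featureCounts; the submitters' processing notes name STAR. The authors deposited raw counts per gene and, separately, TPM per gene. Aligner version, annotation release and strand setting are not given in the sources used here. Counts were tested with edgeR 4.0.16 (TMM, filterByExpr, quasi-likelihood test, Benjamini-Hochberg adjustment, genotype as the only term) in R 4.3.3, where called means an adjusted p under 0.05. DESeq2 1.42.0 and limma 3.58.1 were alternatives. The fit was tested on simulated data. Levels are deposited TPM. Intervals of count ratios are exact at 95% and cover counting error only. Gene positions and coding sequences come from GENCODE on GRCm38, in which 93 of 55487 identifiers were not found.

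The members and lists were chosen with earlier results of these data known. Named were the 5 members, Ago2, and per list each called gene, otherwise the 2 tested genes with the smallest p, with the gene of highest mean TPM; the 3 nearest genes are named for each tested member. Genes outside this rule (Acta2, Napsa and further list members, neighbours and overlapping genes) were chosen after their values were seen. P-values measure the spread between libraries labelled biological replicates; how the cultures were separated is not given. Alternatives were other scalings, filters and tools, a GC correction, a replicate block and each library left out. Fold changes on log2(TPM + 1) and log2(TPM + 0.1) understate the change of low genes.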

Additional observations from a re-analysis of the deposited data

Results flagged for a closer look

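In 36 groups of 4 libraries examined for a single library far from the others (members' levels and shares, and library measures), 3 were set apart, and chance alone gives about 1 in 20. Loxl2 in ΔAgo2 4 was at 0.41 TPM against 0.01 to 0.03 TPM in the other ΔAgo2 libraries, a gap of 0.95 of the group's range, past Dixon's 95% limit for 4 samples. The share of Loxl2 in the family's summed TPM was 0.369% there against 0.00635% to 0.0241%, a gap of 0.951 of the range. This share rests on the same Loxl2 values, so it is not a separate finding. On log2 CPM, which was also examined, ΔAgo2 4 was not set apart for Loxl2. The median Spearman correlation of wild-type 4 with its own group was 0.864 against 0.948 to 0.961, a gap of 0.866 of the range. The cause of these gaps was not tested.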

How the results depend on the processing

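Over all genes edgeR called 42 (11 higher, 31 lower in ΔAgo2). The count was 143 with no filter on low counts, 2 with at least 10 counts in every library, 68 with a GC correction (26 higher, 42 lower), 399 with DESeq2, 257 with limma-voom and sample weights, 15 with limma on log2(TPM + 1), and 1 to 113 with 1 library left out, lowest without ΔAgo2 1 and highest without wild-type 4. Leaving out wild-type 1 gave 12, wild-type 2 gave 78, and ΔAgo2 2, 3 or 4 gave 7 each. Replicate numbers did not pair the libraries (correlations of same-numbered deviations −0.14, −0.049, 0.38 and 0.028, so not every library went best with its own number); as a replicate block they gave 18 calls, and 64 with the GC correction. Genes of the 7 lists called were 1 with DESeq2 (Ltbp4), 2 with limma-voom and sample weights (Ltbp4 and Tgfb3), and 0 in every other setting, each library left out included. Loxl2 was not fitted with at least 10 counts in every library and kept its sign in every setting that fitted it, from −8.02 to −4.84 with 1 library left out, −6.86 with limma-voom and −2.14 with limma on log2(TPM + 1). It was called by DESeq2, both TPM fits, limma-voom, both block fits, without a filter and without ΔAgo2 4, and in no other setting that fitted it. Its family was chosen by this contrast and Loxl2 passed the filter through its wild-type counts, so these calls carry no test. With 1 library left out, the log2 fold change of Loxl1 ran from −1.40 to 0.56 (0.20 with limma-voom), of Loxl3 from 0.0071 to 0.82 and of Loxl4 from 0.34 to 0.54; Loxl4 was 0.64 with the GC correction and 0.67 with the block added. The Lox count ratio ran from 8.22 to 21.2.

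Genes whose small difference changed sign were Pcolce2 (−0.16 with the GC correction, −0.014 with the block added, −0.0017 to 0.29 with 1 library left out), Fn1 (0.10 with GC correction and block, 0.15 in both TPM fits, −0.37 to 0.14 with 1 library left out), Serpinh1 (−0.0017 with RLE size factors, −0.20 to 0.35 with 1 library left out), Aoc2 (−0.83 to 0.12 with 1 library left out) and Hif1a (−0.054 with the GC correction, −0.00028 with the block added, −0.42 with limma-voom, −0.25 to 0.37 with 1 library left out). The cause of these shifts was not tested. Shares of the family's TPM recomputed from counts per exon base stayed within the replicate SD for all 5 members. With 3 counts for Lox, 30 for Loxl1 and 37 for Loxl2 over the ΔAgo2 group, counting error limits these levels.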
